A study of Mus musculus with 6 samples.

Results

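The 85 genes described here encode the proteasome, the cytosolic chaperonin and the heat shock proteins. They were taken by symbol from a table of 23337 mouse genes: every Psma to Psmg gene followed by a number, Tcp1 and the Cct genes, the Hsp genes, and Hsf1, without the interferon-inducible subunit genes Psmb8, Psmb9 and Psmb10. RNA came from hematopoietic stem and progenitor cells (HSPCs) of the mouse, which carried the leukemic fusion oncogene MLL-AF9 in both groups, with 3 libraries from pro-lymphoid culture (lymphoid replicates 1, 5 and 6) and 3 from pro-myeloid culture (myeloid replicates 2, 3 and 4). The labels name no strain, age, donor or culture medium. Whether the libraries of a group came from separate animals or cultures is not given either, so every p-value reflects library-to-library spread that may be technical. The comparison addressed which transcripts differ when cells with the same oncogene are kept under conditions that favour either lineage.

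The proteasome degrades proteins tagged with ubiquitin. Its 20S core is a barrel of alpha and beta rings with the proteolytic sites on the inside, and its 19S cap recognises, unfolds and feeds in substrates with the help of a ring of ATPases. The chaperonin TRiC is a double ring that folds actin, tubulin and other proteins, HSP70 and HSP90 chaperones fold and hold clients in the cytosol, and separate family members serve the endoplasmic reticulum (ER) and the mitochondria. Heat shock factor 1 activates many of these genes through heat shock elements, while ER chaperone genes are activated through ER stress elements.

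The start regions of 6 chaperone genes are shown because they hold a heat shock element or an ER stress element. A link between these elements and the direction of change was not tested. Of the 85 genes, 69 had a promoter in the RefSeq table for GRCm38.p6 (250 bases before to 50 after the start), and motifs were sought on both strands. A gene was counted if any of its promoters matched, while the percentages of promoters are over single promoters. A heat shock element of 3 units, spelled GAANNTTCNNGAA or TTCNNGAANNTTC on the other strand, was in 0.603% of the 32851 promoters in the table and in those of Hsph1, Hspd1 and Hspe1. Its 2-unit form GAANNTTC, which the 3-unit form contains, was in 7.86% of promoters and in 13 of the 69, among them Hspa1a and Hspa1b. The ER stress element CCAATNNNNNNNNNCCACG, which contains a CCAAT box, was in 0.119% of promoters and in those of Hspa5 and Hsp90b1. In the stretches below, capitals mark these matches and all else is in lower case. A match is a description of the letters and not a measured site.
Hspd1-Hspe1, the 215 bases between the starts of the 2 divergent genes (chr1:55087933-55088147, plus strand, 2 overlapping 3-unit matches): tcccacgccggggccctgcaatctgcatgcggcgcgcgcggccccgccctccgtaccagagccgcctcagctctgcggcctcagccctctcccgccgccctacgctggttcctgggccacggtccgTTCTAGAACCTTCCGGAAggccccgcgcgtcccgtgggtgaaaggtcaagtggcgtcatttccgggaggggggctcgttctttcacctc
Hsph1, 25 bases inside the first exon (chr5:149636282-149636306, minus strand, the match beginning 16 bases into the gene): tgcagaTTCTGGAAAGTTCtcctca
Hspa1b, the 150 bases before the start (chr17:34959239-34959388, minus strand, a 2-unit match): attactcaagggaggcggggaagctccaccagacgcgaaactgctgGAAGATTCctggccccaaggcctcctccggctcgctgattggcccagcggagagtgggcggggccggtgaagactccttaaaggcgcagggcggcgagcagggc
Hspa5, the 150 bases before the start (chr2:34771940-34772089, plus strand): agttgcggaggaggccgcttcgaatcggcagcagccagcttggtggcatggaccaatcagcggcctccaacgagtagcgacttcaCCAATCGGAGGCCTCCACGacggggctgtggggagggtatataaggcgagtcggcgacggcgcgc
Hsp90b1, bases 240 to 81 before the start (chr10:86705525-86705684, minus strand, 1 match on each strand): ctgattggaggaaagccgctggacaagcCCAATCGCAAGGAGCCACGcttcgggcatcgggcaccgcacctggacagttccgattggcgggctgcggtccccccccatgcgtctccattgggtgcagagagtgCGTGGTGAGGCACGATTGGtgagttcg

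The libraries held 34972488 to 46724382 counts. The cultures parted along a first principal component with 82.3% of the variance, and along the second (7.91%) myeloid replicate 2 lay away from myeloid replicates 3 and 4. The sum of 5 lymphoid priming markers (Flt3, Il7r, Rag1, Rag2 and Ly6d) was 436 to 677 CPM (counts per 1000000, with library sizes scaled by trimmed mean of M-values) in pro-lymphoid culture, against 0.912 to 30.9 CPM in pro-myeloid culture. That of 5 granulocyte-monocyte markers (Mpo, Elane, Ms4a3, Csf1r and Itgam) was 339 to 644 CPM in pro-lymphoid and 3239 to 5964 CPM in pro-myeloid culture. The 3 T cell markers summed to at most 0.131 CPM and the 3 erythroid markers to at most 1.01 CPM in any library. The 4 stromal markers summed to 1.90 to 19.4 CPM in pro-lymphoid and 5.54 to 17.01 CPM in pro-myeloid culture. The 3 genes listed for mast cells summed to 0.445 to 1.95 CPM in pro-lymphoid and 7.16 to 28.8 CPM in pro-myeloid culture. Most of the pro-myeloid sum was Mcpt8, at 7.03, 13.1 and 20.6 CPM in myeloid replicates 2, 3 and 4, so the sum does not identify mast cells. Cpa3 stood at 8.13 CPM in myeloid replicate 4 and at most 0.711 CPM in any other library, and Fcer1a had 0 counts throughout. All 4 genes of the progenitor and MLL-AF9 target list were called by edgeR. Kit averaged 83.5 ± 16.8 CPM in pro-lymphoid and 24.9 ± 15.6 CPM in pro-myeloid culture (SD, n = 3, edgeR adjusted p = 0.0165, a call lost on leaving out lymphoid replicate 6), and Cd34 averaged 308 ± 105 CPM in pro-lymphoid and 117 ± 29.2 CPM in pro-myeloid culture (0.00906). Both were higher in pro-lymphoid culture, while Hoxa9 at 111 ± 11.04 CPM in pro-lymphoid and 215 ± 4.78 CPM in pro-myeloid culture (edgeR adjusted p = 0.00107) and Meis1 at 39.7 ± 4.50 CPM in pro-lymphoid and 108 ± 22.7 CPM in pro-myeloid culture (0.00125) were lower. Pax5, a B cell transcription factor that did not pass the filter on low counts, had 2, 2 and 0 counts in lymphoid replicates 1, 5 and 6, against 1, 81 and 78 counts in myeloid replicates 2, 3 and 4. The part of the marked cell types and of these genes in the results below was not tested, and in bulk RNA, fewer cells of a type and less RNA per cell cannot be told apart.

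Of the 85 genes, 77 passed the filter on low counts and 25 of these differed between the cultures, 18 with more RNA in pro-lymphoid culture and 7 with less (quasi-likelihood test in edgeR, Benjamini-Hochberg adjusted p under 0.05 over all genes tested). That is 32.5% of the 77, against 37.4% of all 12477 tested genes, of which 16.8% were higher and 20.6% lower, so the share is near the background. The median log2 fold change, pro-lymphoid minus pro-myeloid, was 0.11 over the 77 and -0.00020 over all tested genes. Groups did not overlap for 35 of the 77, 23 standing higher and 12 lower in pro-lymphoid culture, against 53.5% of all tested genes (26.4% and 27.2%). The changes were small: 1 higher gene (Hsph1) and 3 lower genes (Hspa4l, Hspa1b and Hspa12a) reached 2-fold, which 20.3% of all tested genes did. The 8 genes that were not tested were Psma8, the testis alpha subunit, Cct8l1, Hspb2 and Hspb8 with 0 counts, and Psmb11, the thymus beta subunit, Hspb1, Hspb3 and Hspb7 with at most 11 counts in a library. Hspb1, the small heat shock protein HSP27 in human cells, had 0.190, 0.131 and 0.00 CPM in lymphoid replicates 1, 5 and 6, against 0.182, 0.296 and 0.238 CPM in myeloid replicates 2, 3 and 4. Values per library are given in this replicate order throughout.

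**Figure D1:**
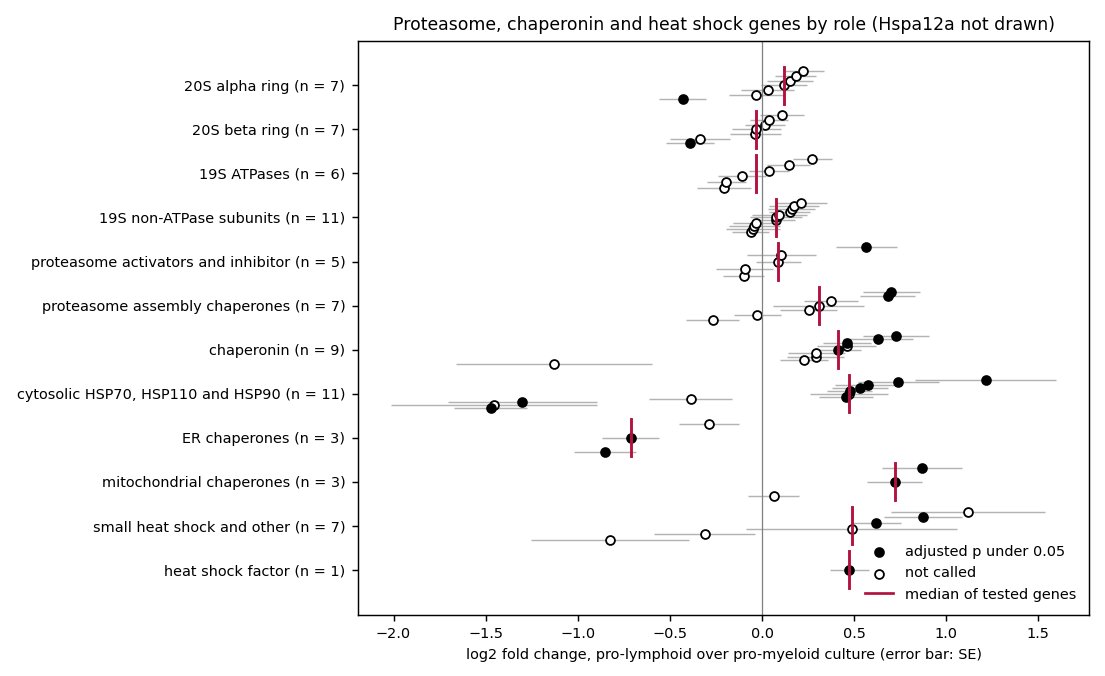
Log2 fold change of 76 tested genes (x axis, pro-lymphoid over pro-myeloid culture, error bars SE) by role (y axis, with the number tested), with filled points for an edgeR adjusted p under 0.05, open points for the rest and a bar at each role's median. The 26S subunits drawn, which do not include Shfm1 (Sem1), lie between -0.43 and 0.27. The chaperonin has a median of 0.41 and the ER chaperones one of -0.71. Hspa12a is left out because pro-lymphoid culture held 2 of its counts.

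The 26S proteasome subunits among the 85 genes differed little between the cultures. The choice by symbol left out the cap subunit gene Sem1, counted under its older symbol Shfm1. Shfm1 was called lower in pro-lymphoid culture (log2 fold change -0.58 ± 0.16, SE, edgeR adjusted p = 0.0279) and is described with the partner genes below. Of 31 tested 20S and 19S genes, 0 were higher and 2 were lower in pro-lymphoid culture, by edgeR's adjusted p, with a median log2 fold change of 0.04. That is 6.45% called, against 37.4% of all tested genes. The 29 that were not called had log2 fold changes of -0.34 to 0.27, with a median SE of 0.13 over the 31. Scaled to exon length and summed, the 33 genes stood at 3949, 4619.98 and 4478 CPM per kb in pro-lymphoid culture, against 4399.5, 4109.2 and 4546 CPM per kb in pro-myeloid culture. The mean was 4349 ± 354 CPM per kb in pro-lymphoid and 4352 ± 222 CPM per kb in pro-myeloid culture (SD, n = 3), a ratio of 0.999, and the libraries of the cultures overlapped. Within the tested 26S subunits, levels per kb spanned 3.95-fold, between Psmd12 at 64.8 and Psma7 at 256 CPM per kb over all libraries.

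Both lower genes of this set encode 20S subunits. Psma3, an alpha ring subunit, stood at 179, 211 and 209.5 CPM in pro-lymphoid culture, against 261, 245 and 302 CPM in pro-myeloid culture. All 3 pro-lymphoid values lay below the pro-myeloid ones (log2 fold change -0.43 ± 0.13, SE, edgeR adjusted p = 0.036). Psmb5, the subunit with chymotrypsin-like activity and the main site of bortezomib, stood at 111, 129.7 and 126 CPM in pro-lymphoid culture, against 183, 145 and 153 CPM in pro-myeloid culture. Here too the groups did not overlap (-0.39 ± 0.13, edgeR adjusted p = 0.0493). The call of Psma3 was lost on leaving out lymphoid replicate 1, 5 or 6 or myeloid replicate 4 (adjusted p up to 0.121) and with upper-quartile scaling (0.0587). That of Psmb5 was lost when any library except myeloid replicate 3 was left out (up to 0.131), and with RLE (0.0534), upper-quartile (0.0627) or no scaling (0.0756) and with no filter (0.0642). Of the 100-base windows of the transcripts, the read length, 20.6% for Psma3 and 24.9% for Psmb5 also occur in another gene or pseudogene. Of the exon bases of Psmb5, 12.5% overlap Mir686. Reads of these genes may therefore have been assigned elsewhere or left uncounted.

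The other catalytic subunits were not called. Psmb6, with caspase-like activity, stood at 119.5, 155 and 138 CPM in pro-lymphoid and 128, 146 and 148 CPM in pro-myeloid culture (-0.03 ± 0.13, edgeR adjusted p = 0.871). Psmb7, with trypsin-like activity, stood at 164, 180.1 and 189 CPM in pro-lymphoid and 181, 165 and 182 CPM in pro-myeloid culture (0.02 ± 0.11, 0.916). Both overlapped between the groups. Of the inducible counterparts Psmb8, Psmb9 and Psmb10, which replace the catalytic subunits in the immunoproteasome, 0 of 3 were called. The ratio of their sum to that of Psmb5, Psmb6 and Psmb7, per kb, was 1.01, 0.960 and 1.01 in pro-lymphoid culture, against 0.601, 1.33 and 0.875 in pro-myeloid culture. The pro-myeloid libraries lay on both sides of the pro-lymphoid ones, with myeloid replicate 2 lowest and myeloid replicate 3 highest.

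Regulators of the core showed 1 call among 5 tested genes (20%, against 37.4% of all tested genes). Psme3, which encodes the nuclear activator PA28 gamma, stood at 265, 312 and 332 CPM in pro-lymphoid culture, against 228, 162 and 224 CPM in pro-myeloid culture. It was higher in pro-lymphoid culture without overlap (0.57 ± 0.17, edgeR adjusted p = 0.0341), a call lost on leaving out lymphoid replicate 5 or 6 or myeloid replicate 3 or 4 (up to 0.12). Psme1 and Psme2 encode the subunits of the interferon-inducible activator PA28 alpha-beta. Psme1 stood at 177, 240.3 and 231 CPM in pro-lymphoid and 155, 233 and 214 CPM in pro-myeloid culture (0.11 ± 0.19, edgeR adjusted p = 0.691). Psme2 stood at 139.7, 148 and 137 CPM in pro-lymphoid and 146, 168 and 141 CPM in pro-myeloid culture (-0.10 ± 0.11, 0.513), and 44.5% of its 100-base windows also occur elsewhere, mainly in Psme2b. Each of these genes overlapped between the groups. Psme4, the activator PA200, stood at 121, 90.2 and 114 CPM in pro-lymphoid and 134, 107 and 106 CPM in pro-myeloid culture (-0.10 ± 0.16, edgeR adjusted p = 0.661). Psmf1, the inhibitor PI31, stood at 40.01, 50.4 and 45.0 CPM in pro-lymphoid and 41.5, 41.9 and 44.1 CPM in pro-myeloid culture (0.09 ± 0.12, 0.605), again with overlap.

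Among 7 assembly chaperones, which help build the core and the cap and leave the finished particle, 2 were higher and 0 were lower in pro-lymphoid culture, with a median log2 fold change of 0.31. That is 28.6% called, no more than the 37.4% of all tested genes. Psmg2, the partner of Psmg1 in building the alpha ring, stood at 38.4, 43.2 and 44.9 CPM in pro-lymphoid culture, against 26.04, 21.7 and 30.1 CPM in pro-myeloid culture (0.70 ± 0.15, edgeR adjusted p = 0.0117). Psmg3, which works with Psmg4 at the same step, stood at 28.1, 33.2 and 37.9 CPM in pro-lymphoid and 20.5, 19.9 and 21.5 CPM in pro-myeloid culture (0.68 ± 0.15, 0.0113). Neither overlapped, and both calls were lost in the absence of lymphoid replicate 6 (0.052 and 0.0547). Their partners Psmg1 (0.37 ± 0.15, edgeR adjusted p = 0.0875) and Psmg4 (0.31 ± 0.25, 0.361) were not called, and neither were the cap assembly genes Psmd5, Psmd9 and Psmd10 (0.25, -0.03 and -0.27). The sum over the 7 was 256 ± 30.8 CPM per kb in pro-lymphoid and 202 ± 8.56 CPM per kb in pro-myeloid culture (SD, n = 3).

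Of 21 tested partner genes of the proteasome outside the family, 2 were higher and 5 were lower in pro-lymphoid culture by edgeR's adjusted p, with a median log2 fold change of 0.09. That is 33.3% called, near the 37.4% of all tested genes. Nfe2l1, the transcription factor that raises proteasome genes when proteolysis fails, stood at 143, 149.5 and 129 CPM in pro-lymphoid culture, against 248.6, 258 and 210.4 CPM in pro-myeloid culture (-0.77 ± 0.12, edgeR adjusted p = 0.00357). Ddi2, the protease that activates it, stood at 30.1, 22.1 and 25.7 CPM in pro-lymphoid and 39.4, 41.8 and 34.6 CPM in pro-myeloid culture (-0.57 ± 0.15, 0.0255). The call of Ddi2 was lost on leaving out lymphoid replicate 5 or 6 or myeloid replicate 3 (up to 0.0888). AI314180, the older symbol of the proteasome adaptor gene Ecpas, was also lower (-0.64 ± 0.13, 0.00761), as were Nfe2l2 (-0.85) and Shfm1, the older symbol of the cap subunit gene Sem1 (-0.58). Ubqln4, a ubiquitin shuttle gene, was higher (0.85 ± 0.14, 0.0034), and so was Pomp, the core maturation factor (0.43). The call of Nfe2l2 was lost with no scaling factors and on leaving out lymphoid replicate 1 or 6 or myeloid replicate 2 or 4, that of Shfm1 when any library except myeloid replicate 2 was left out, and that of Pomp on leaving out lymphoid replicate 5 or 6 or myeloid replicate 2 or 4. With lymphoid replicate 5, lymphoid replicate 6 or myeloid replicate 4 left out, the list had 4, 3 and 4 calls in place of 7. The core TGACNNNGC of the antioxidant response element, which NFE2L1 and NFE2L2 bind, was in the promoters of 4 of the 25 genes of the 26S particle that had one (16%) and in 12.4% of all promoters. The share of genes counts a gene with any matching promoter and the other counts single promoters, so their basis differs.

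**Figure D2:**
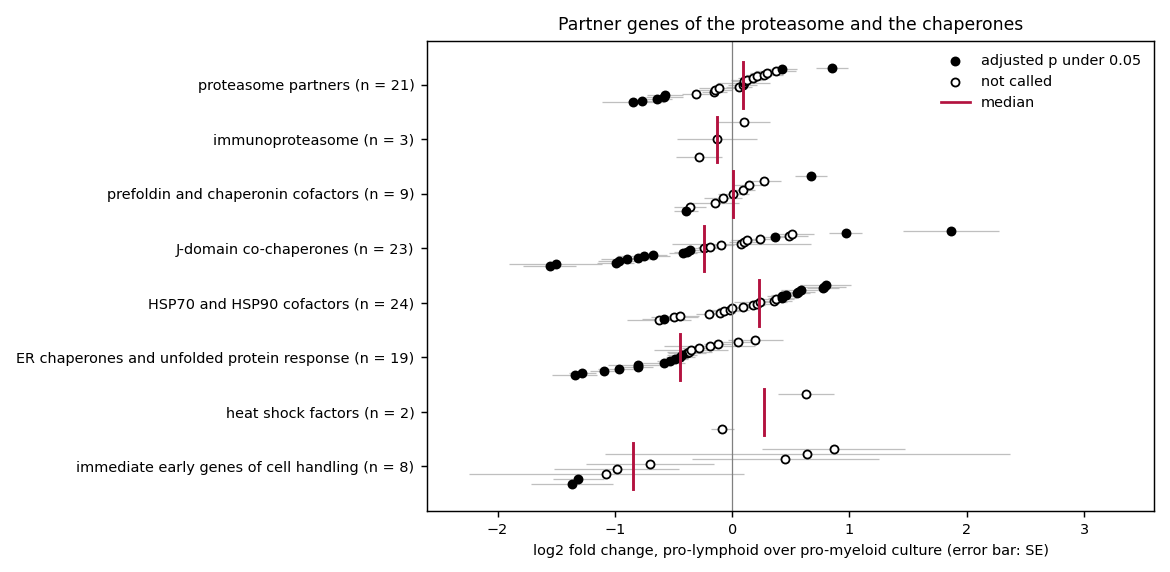
Log2 fold change of tested partner genes (x axis, pro-lymphoid over pro-myeloid culture, error bars SE) in 8 lists (y axis, with the number tested), filled where the edgeR adjusted p was under 0.05, with a bar at each median. The HSP70 and HSP90 cofactors have a median of 0.23 and the ER chaperones and unfolded protein response one of -0.44.

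The chaperonin genes that were called were higher in pro-lymphoid culture. Of the 9 that were tested, 4 were called higher and 0 lower (edgeR adjusted p under 0.05), with a median log2 fold change of 0.41. That is 44.4% called, near the 37.4% of all tested genes. Groups did not overlap for 7 of the 9, against 53.5% of all tested genes. The 7 include Cct6b, which stood lower in pro-lymphoid culture, unlike the rest. The sum over the family was 1852 ± 193 CPM per kb in pro-lymphoid and 1383 ± 154 CPM per kb in pro-myeloid culture (SD, n = 3), a ratio of 1.34. Cct3 stood at 400.1, 428 and 500.4 CPM in pro-lymphoid culture, against 319, 209 and 275 CPM in pro-myeloid culture (0.73 ± 0.18, edgeR adjusted p = 0.0184). Cct5 stood at 457, 549 and 571 CPM in pro-lymphoid and 369.5, 364 and 410.3 CPM in pro-myeloid culture (0.46 ± 0.13, 0.0291). Both encode subunits of the double ring, and their groups did not overlap. Cct6a (0.63) and Cct7 (0.41) were the other calls, each with an edgeR adjusted p of 0.038. Tcp1, the subunit that named the complex, stood at 491, 532 and 589 CPM in pro-lymphoid and 432, 315 and 425 CPM in pro-myeloid culture (0.46 ± 0.16, edgeR adjusted p = 0.0574), not called although the groups did not overlap. Tcp1 was called with upper-quartile scaling (0.0375), no scaling (0.0473), DESeq2 (0.0371) and without myeloid replicate 2 (0.0443), and 24.2% of its exon bases overlap Acat3. Cct2, Cct4 and Cct8 had log2 fold changes of 0.23, 0.29 and 0.30 without a call.

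The chaperonin calls depended on which libraries were included. Lymphoid replicate 1 was the lowest of its group for all 9 tested genes, and lymphoid replicate 6 the highest for 8. Cct3 lost its call without lymphoid replicate 6 (0.0727) or myeloid replicate 4 (0.0587), Cct5 when any library except lymphoid replicate 1 was left out (0.0517 to 0.114), and Cct6a and Cct7 kept theirs in 1 and 2 of the 6 fits that leave out a library. Cct6b, the testis form of Cct6a, had few counts and stood at 0.136, 0.523 and 0.396 CPM in pro-lymphoid and 0.573, 0.977 and 0.780 CPM in pro-myeloid culture (-1.13 ± 0.53, edgeR adjusted p = 0.136). Of 9 genes of prefoldin, which hands substrates to the chaperonin, and of chaperonin cofactors, 1 was higher and 1 lower. That is 22.2% called, against 37.4% of all tested genes. Pfdn2, a prefoldin subunit, stood at 53.0, 66.6 and 69.0 CPM in pro-lymphoid and 42.1, 37.0 and 39.1 CPM in pro-myeloid culture (0.67 ± 0.14, edgeR adjusted p = 0.00861). Pdcl3, a phosducin-like cofactor, was lower (-0.39 ± 0.11, 0.0247), a call lost when any library except myeloid replicates 2 and 3 was left out (up to 0.0885).

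**Figure D3:**
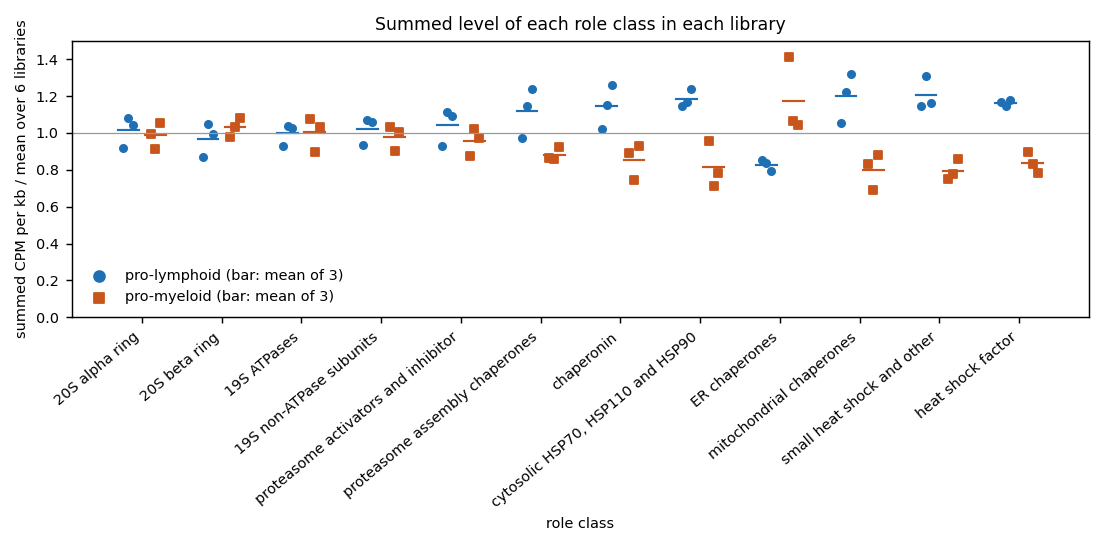
Summed CPM per kb of each role, divided by its mean over the 6 libraries (y axis, from 0), by role (x axis), for pro-lymphoid (circles, 3) and pro-myeloid libraries (squares, 3), bars marking the group means. The 26S roles overlap between the cultures, while the cytosolic HSP70, HSP110 and HSP90 sum (pro-lymphoid 4303, pro-myeloid 2970 CPM per kb) and the ER sum (pro-lymphoid 613, pro-myeloid 868 CPM per kb) do not.

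The cytosolic HSP70, HSP110 and HSP90 genes held the most abundant members and moved in both directions. Of 11 tested genes, 6 were higher and 2 were lower in pro-lymphoid culture by edgeR (adjusted p under 0.05), with a median log2 fold change of 0.47. That is 72.7% called, against 37.4% of all tested genes (16.8% higher and 20.6% lower), a difference that was not tested. The sum was 4303 ± 172 CPM per kb in pro-lymphoid and 2970 ± 454 CPM per kb in pro-myeloid culture (SD, n = 3). Hspa8, the constitutive HSC70, was the most abundant of all 85 genes at 1623 CPM per kb over all libraries, ahead of Hsp90ab1 at 1353.5 and Hsp90aa1 at 443 CPM per kb. Hspa8 stood at 4188, 4008 and 4069.7 CPM in pro-lymphoid culture, against 3399.7, 2449.7 and 2378 CPM in pro-myeloid culture. The groups did not overlap, with myeloid replicate 2 nearest to pro-lymphoid culture (0.58 ± 0.18, edgeR adjusted p = 0.0427). Hsp90ab1, the constitutive HSP90 beta, stood at 3673, 4042 and 4326 CPM in pro-lymphoid and 2943, 2456 and 2919.5 CPM in pro-myeloid culture (0.53 ± 0.15, 0.0312). Hsp90aa1, the inducible HSP90 alpha, stood at 1357, 1407 and 1636 CPM in pro-lymphoid and 1362, 799 and 1012 CPM in pro-myeloid culture. It overlapped through myeloid replicate 2 and was not called (0.47 ± 0.21, edgeR adjusted p = 0.12), but was without that library (0.0166). Reads of Hspa8 and Hsp90aa1 are in part ambiguous, since 31.6% and 47.5% of their 100-base windows also occur elsewhere.

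Hsph1, the nucleotide exchange factor HSP110, whose heat shock element is shown above, was the member called higher with a fold change over 2 in the fit on all libraries (mm10, chromosome 5, 149616845 to 149636315). It stood at 193, 142 and 173 CPM in pro-lymphoid culture, against 123, 43.8 and 52.1 CPM in pro-myeloid culture. All pro-lymphoid values lay above the pro-myeloid ones, among which myeloid replicate 2 was far the highest (1.21 ± 0.38, edgeR adjusted p = 0.0433). Its log2 fold change was 0.95, under 2-fold, without myeloid replicate 3 and 1.82 without myeloid replicate 2. Hspa14, a ribosome-bound HSP70, stood at 109, 121 and 124 CPM in pro-lymphoid and 89.4, 75.0 and 90.6 CPM in pro-myeloid culture (0.47 ± 0.12, 0.0204). Hspa4, an HSP110 relative (0.46, 0.0445), and Hspa1l, a testis HSP70 (0.74, 0.0349), were the remaining higher calls. Hspa8 and Hsph1 lost their calls when any library except myeloid replicate 2 was left out (0.0984 to 0.144 and 0.0665 to 0.135). Hsp90ab1 lost its call on leaving out lymphoid replicate 5 or 6 or myeloid replicate 3 or 4 (0.0743 to 0.112), Hspa14 without lymphoid replicate 5 or 6 (0.0661 and 0.0808), and Hspa4 and Hspa1l kept theirs in 1 of the 6 fits that leave out a library.

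Other cytosolic HSP70 genes stood lower in pro-lymphoid culture. Hspa4l, an HSP110 relative of Hspa4 described in testis, stood at 20.3, 13.1 and 20.2 CPM in pro-lymphoid culture, against 47.6, 45.7 and 55.3 CPM in pro-myeloid culture. The groups lay well apart (-1.47 ± 0.20, edgeR adjusted p = 0.00174), and the call was kept without any single library. Hspa1b, a stress-inducible HSP70, stood at 3.17, 8.76 and 7.77 CPM in pro-lymphoid and 11.3, 19.5 and 17.9 CPM in pro-myeloid culture. It was lower without overlap (-1.30 ± 0.40, edgeR adjusted p = 0.0411), a call lost on leaving out lymphoid replicate 6 or myeloid replicate 3 or 4 (0.086 to 0.111). Its near-identical neighbour Hspa1a stood at 1.25, 4.92 and 4.37 CPM in pro-lymphoid and 5.08, 12.2 and 11.7 CPM in pro-myeloid culture (-1.46 ± 0.56, edgeR adjusted p = 0.0786), not called here but called with DESeq2 (0.0181) and without myeloid replicate 2 (0.036). About as many 100-base windows of Hspa1a (48.6%) as of Hspa1b (49.9%) also occur in another gene, and their 250 bases before the start differ at 3 positions, so reads may be split between them. Their sum was 4.42, 13.7 and 12.1 CPM in pro-lymphoid and 16.4, 31.7 and 29.5 CPM in pro-myeloid culture. Neither gene overlapped between the groups, so the sum could not overlap either. Both lie on chromosome 17 (mm10), Hspa1b at 34956429 to 34959238 and Hspa1a at 34969359 to 34972156. Hspa2, a testis HSP70, was not called (-0.39 ± 0.23, edgeR adjusted p = 0.219).

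Genes that cell handling can induce also varied between the libraries. The sum of 8 immediate early genes was 219.9, 209 and 393 CPM in pro-lymphoid and 314, 861 and 384 CPM in pro-myeloid culture. It was highest in myeloid replicate 3, as were Hspa1a and Hspa1b. Within pro-myeloid culture it rose from replicate 2 to 4 to 3, as did the Hspa1a plus Hspa1b sum (16.4, 29.5 and 31.7 CPM). Lymphoid replicates 1 and 5 lay below all pro-myeloid libraries in both sums. Lymphoid replicate 6 had a higher immediate early sum than myeloid replicates 2 and 4, but a lower Hspa1a plus Hspa1b sum (12.1 CPM). Junb (-1.31 ± 0.22, edgeR adjusted p = 0.00387) and Ier2 (-1.37 ± 0.35, 0.0208) were the called genes of the 8 (25%, against 37.4% of all tested genes). Ier2 was not called on leaving out lymphoid replicate 1, 5 or 6 (0.0609 to 0.0619). The part of handling in the Hspa1a and Hspa1b values was not tested. The ratio of Hsph1 to Hspa1b in CPM, chosen after the values were seen, was 60.9, 16.2 and 22.2 in pro-lymphoid and 10.9, 2.25 and 2.92 in pro-myeloid culture. It could not overlap, since Hsph1 was higher and Hspa1b lower in pro-lymphoid culture, each without overlap.

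**Figure D4:**
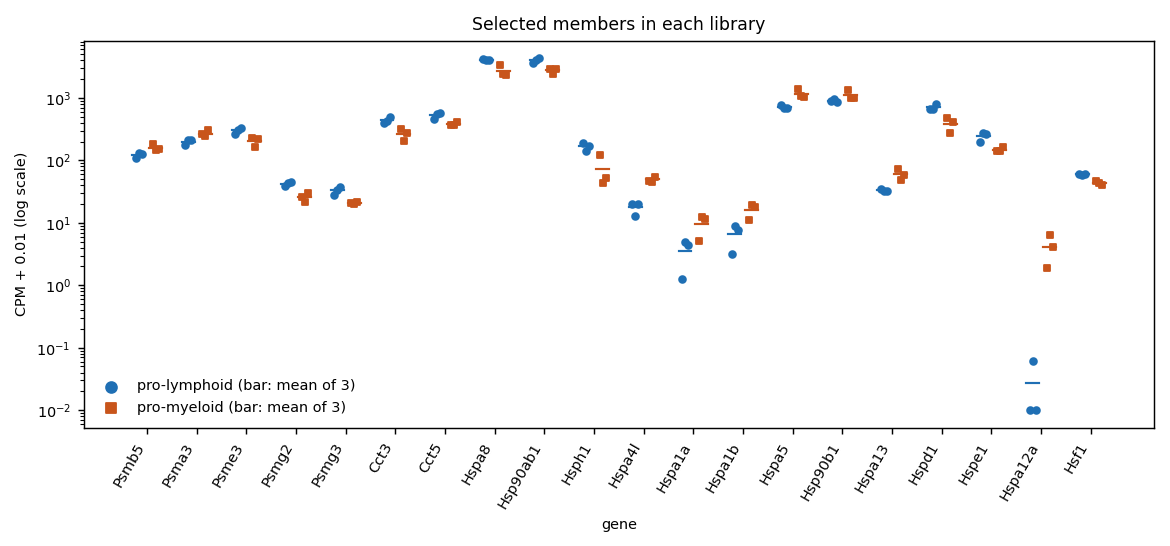
CPM plus 0.01 (y axis, log scale) of 20 genes (x axis) in pro-lymphoid (circles, 3) and pro-myeloid libraries (squares, 3), bars marking the group means. Hspa8 and Hsp90ab1 lie at the top with higher pro-lymphoid values, Hspa5 (719 CPM in pro-lymphoid and 1179 CPM in pro-myeloid culture) runs the other way, and Hspa12a has at most 0.0523 CPM in pro-lymphoid culture.

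The 3 ER members stood lower in pro-lymphoid culture, while of 11 cytosolic relatives 6 were called higher and 2 lower there. By edgeR's adjusted p, 2 of the 3 ER members were called lower. Of all tested genes, 16.8% were called higher and 20.6% lower. The ER sum was 613 ± 23.5 CPM per kb in pro-lymphoid and 868 ± 152 CPM per kb in pro-myeloid culture (SD, n = 3). Hspa5, the ER HSP70 known as BiP (mm10, chromosome 2, 34772090 to 34776529), stood at 772, 687 and 699 CPM in pro-lymphoid culture, against 1406, 1092 and 1039.5 CPM in pro-myeloid culture. The groups did not overlap (-0.71 ± 0.16, edgeR adjusted p = 0.0113), with the call lost without lymphoid replicate 5 or 6 (0.0521 and 0.0536). Hspa13, a microsomal HSP70, stood at 35.3, 32.02 and 31.97 CPM in pro-lymphoid and 73.2, 48.4 and 57.5 CPM in pro-myeloid culture (-0.85 ± 0.17, 0.00761), a call kept without any single library. Hsp90b1, the ER HSP90 known as GRP94, stood at 903, 968 and 859 CPM in pro-lymphoid and 1348, 989.5 and 997 CPM in pro-myeloid culture. It did not overlap but was not called (-0.29 ± 0.16, edgeR adjusted p = 0.199). Myeloid replicate 2 was the highest of its group for all 3. Per kb, the ratio of Hspa8 to Hspa5, also chosen after the values were seen, was 6.75, 7.25 and 7.24 in pro-lymphoid culture, against 3.01, 2.79 and 2.84 in pro-myeloid culture. This ratio could not overlap, since Hspa8 was higher and Hspa5 lower in pro-lymphoid culture, each without overlap.

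Of 19 tested genes of ER folding and the unfolded protein response outside the family, 0 were higher and 11 were lower in pro-lymphoid culture by edgeR (adjusted p under 0.05), with a median log2 fold change of -0.44 against -0.00020 over all tested genes, of which 16.8% were higher and 20.6% lower. Hyou1, Dnajb9 and Dnajc3, among the 11, are also counted in the cofactor or J-domain lists below. P4hb, a protein disulfide isomerase, stood at 629, 640.1 and 649 CPM in pro-lymphoid culture, against 1544, 1604 and 1496 CPM in pro-myeloid culture (-1.28 ± 0.12, edgeR adjusted p = 0.000394). Xbp1, the transcription factor of the unfolded protein response, stood at 129.6, 156 and 135 CPM in pro-lymphoid and 276, 444 and 348 CPM in pro-myeloid culture (-1.34 ± 0.19, 0.00206). Its activating nuclease and kinase gene Ern1 fell by 1.09 ± 0.13 (0.00102) and the ER co-chaperone gene Dnajc3 by 0.80 ± 0.13 (0.00319). The stress transcription factor genes Atf4 (-0.35), Ddit3 (-0.19) and Atf6 (-0.12) were not called. With no scaling factors 7 of the list were called in place of 11, and without lymphoid replicate 1, 5 or 6 the number was 7, 6 and 6. The granulocyte-monocyte markers summed to 339 to 644 CPM in pro-lymphoid and 3239 to 5964 CPM in pro-myeloid culture, and their part in these values was not tested.

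Among the 3 mitochondrial chaperones, 2 were called higher in pro-lymphoid culture, against 16.8% of all tested genes. These are the pair that shares the start region shown above. Hspd1, the mitochondrial chaperonin HSP60 (mm10, chromosome 1, 55077834 to 55087932), stood at 670.4, 659 and 804 CPM in pro-lymphoid culture, against 479, 274 and 416 CPM in pro-myeloid culture (0.87 ± 0.22, edgeR adjusted p = 0.0191). Hspe1, its lid HSP10 (chromosome 1, 55088148 to 55091317), stood at 200.1, 275 and 265 CPM in pro-lymphoid and 143, 142 and 164 CPM in pro-myeloid culture (0.72 ± 0.15, 0.00959). Neither overlapped, and the ratio of Hspd1 to Hspe1 per kb was 1.10, 0.789 and 1.0001 in pro-lymphoid and 1.10, 0.637 and 0.836 in pro-myeloid culture, with overlap. The call of Hspe1 was kept without any single library and that of Hspd1 was lost without lymphoid replicate 6 (0.0723) or myeloid replicate 4 (0.0544), and 26.9% of the 100-base windows of Hspd1 also occur elsewhere. Hspa9, the mitochondrial HSP70 mortalin, stood at 524, 596 and 641 CPM in pro-lymphoid and 535, 517 and 635 CPM in pro-myeloid culture and was not called (0.06 ± 0.14, edgeR adjusted p = 0.747).

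Of the 7 tested small heat shock and other genes, 2 were higher and 1 was lower in pro-lymphoid culture. That is 42.9% called, near the 37.4% of all tested genes. Hspa12a, an atypical HSP70, had 0, 2 and 0 counts in pro-lymphoid culture, at 0.00, 0.0523 and 0.00 CPM, against 1.90, 6.40 and 4.12 CPM in pro-myeloid culture (479 counts in all, edgeR adjusted p = 0.00125). The ratio of pro-myeloid to pro-lymphoid counts was 239, with an exact 95% counting interval of 65.8 to 1979.5 that covers counting error only. Hspbp1, an HSP70 nucleotide exchange factor, stood at 63.7, 76.6 and 68.2 CPM in pro-lymphoid and 42.9, 41.0 and 51.6 CPM in pro-myeloid culture (0.62 ± 0.14, edgeR adjusted p = 0.0113). Neither overlapped, and both calls were kept without any single library. Hspbap1, which encodes an HSPB1-associated protein, was also higher (0.87, edgeR adjusted p = 0.017) and kept its call in 4 of the 6 fits that leave out a library. Hspb6, Hspb9, Hspb11 and Hspa12b had log2 fold changes of -0.31, -0.83, 1.12 and 0.49 without a call.

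Hsf1, the heat shock transcription factor, stood at 60.7, 59.5 and 61.3 CPM in pro-lymphoid culture, against 46.6, 43.3 and 40.8 CPM in pro-myeloid culture. The values were tight within each culture and did not overlap (0.47 ± 0.10, edgeR adjusted p = 0.0118), with the call lost without lymphoid replicate 6 (0.0519) or myeloid replicate 4 (0.0526). Hsf2 (0.63 ± 0.24, edgeR adjusted p = 0.0769) and Hsbp1, which encodes an HSF1-binding protein (-0.08 ± 0.10, 0.535), were not called, although Hsf2 was with DESeq2, with limma-voom and without myeloid replicate 2. Genes with a heat shock element in the promoter differed in direction. Of the 13 genes with at least the 2-unit form, Hsph1, Hspd1 and Hspe1, which hold the 3-unit form, were higher, Hspa1b and Psmb5 were lower, and the other 8 were not tested or not called.

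Of 24 cofactors of HSP70 and HSP90, 9 were higher and 1 was lower by edgeR's adjusted p (41.7% called), with a median log2 fold change of 0.23. Of all tested genes 37.4% were called, 16.8% higher and 20.6% lower, and the difference between the lists was not tested. Cdc37, the kinase-specific HSP90 cofactor, stood at 463, 491 and 522 CPM in pro-lymphoid culture, against 330.3, 343 and 331 CPM in pro-myeloid culture (0.56 ± 0.11, edgeR adjusted p = 0.00684). Ppp5c, an HSP90-bound phosphatase (0.77 ± 0.14, 0.00514), Fkbp4, a steroid receptor immunophilin (0.78 ± 0.19, 0.0182), and St13, the HSP70-interacting protein HIP (0.56 ± 0.14, 0.0218), were higher as well. Fkbp4 and St13 lost their calls without lymphoid replicate 5 or 6 or myeloid replicate 4 (0.0525 to 0.0837). The lower gene was the ER exchange factor Hyou1 (-0.58, 0.0412), a call lost with no scaling factors and on leaving out lymphoid replicate 1, 5 or 6 or myeloid replicate 3. Of 23 J-domain genes, which deliver clients to HSP70, 3 were higher and 11 lower (60.9% called), with a median of -0.24. Dnajc10, an ER disulfide reductase, stood at 152, 116 and 124 CPM in pro-lymphoid and 520.0, 311 and 322 CPM in pro-myeloid culture (-1.56 ± 0.23, edgeR adjusted p = 0.00246), and Dnajc13, an endosomal gene, fell by 0.99 ± 0.16 (0.00347). Dnajc9, a histone chaperone, was higher (0.97 ± 0.14, 0.0023). Without lymphoid replicate 5 or 6 the number of cofactors called was 2 each in place of 10, and without lymphoid replicate 1 or myeloid replicate 3 or 4 it was 5, 6 and 6, while the number of J-domain genes called was 9, 7 and 9 without lymphoid replicate 5 or 6 or myeloid replicate 4, in place of 14.

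The order of the libraries within each culture was similar for many members. Lymphoid replicate 1 was the lowest of its group for 58 of the 77 tested genes, and myeloid replicate 3 the lowest of its group for 55. Myeloid replicate 2 was the highest of its group for 36. Of the 25 calls, 5 were kept without any single library (Hspa4l, Hspa13, Hspe1, Hspa12a and Hspbp1). Without lymphoid replicate 6, 2 genes were called higher and 3 lower in place of 18 and 7, and without myeloid replicate 4 it was 5 and 4. Without lymphoid replicate 5 the numbers were 9 and 4, and without myeloid replicate 3 there were 10 higher genes. Without lymphoid replicate 1, 13 were higher and 5 lower, and without myeloid replicate 2, the library that lay apart, 18 and 9. No called gene changed sign under any of these.

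**Figure D5:**
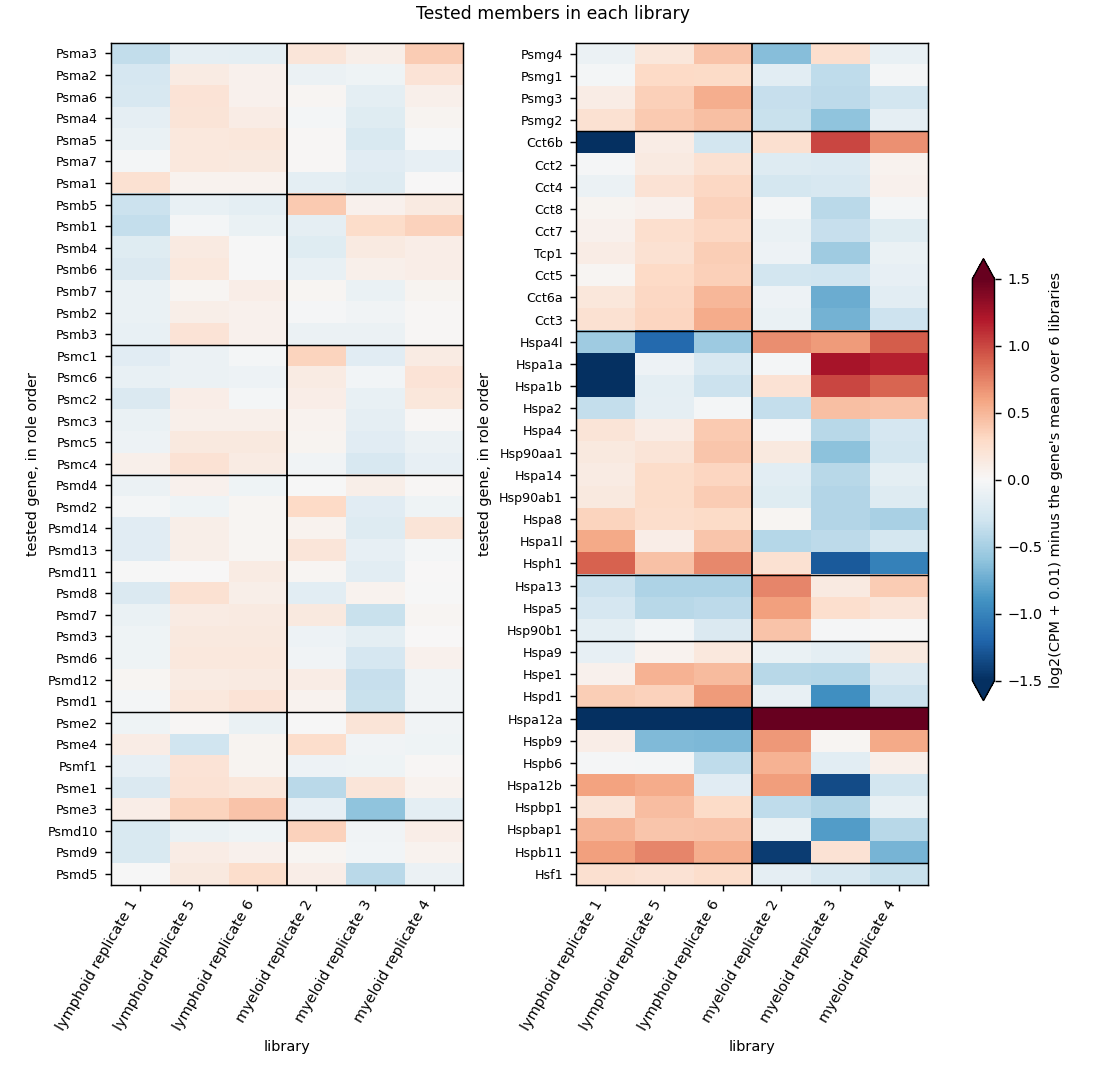
Log2(CPM + 0.01) minus the gene's mean over the 6 libraries (colour, red above and blue below, ends of the scale at -1.5 and 1.5) for the 77 tested genes (rows, in role order, horizontal lines between roles) in the 3 pro-lymphoid and 3 pro-myeloid libraries (columns). The 26S subunits are pale throughout, the chaperonin genes are mostly red in pro-lymphoid culture, unlike Cct6b, and the ER members are blue there.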

How the data were processed

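Per the labels' protocols, poly(A)-selected RNA was made into libraries with a kit that does not mark strand and sequenced as 100-base single-end reads on a HiSeq 2500. The authors deposited 1 table of raw read counts for 23337 genes and 6 libraries. Per the file headers, featureCounts 1.5.1 counted primary alignments over exons of the UCSC annotation of mm10. The submitters' processing notes name Trimmomatic, Bowtie and TopHat besides featureCounts and DESeq2, with settings not given in the sources used here. Counts of genes that share sequence or overlap are uncertain, since their reads may be placed at the other gene or left uncounted. Windows of 100 bases shared with other genes were counted on GENCODE transcripts (vM21).

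From the deposited counts, genes were filtered with filterByExpr, scaled by trimmed mean of M-values (TMM, factors 0.961 to 1.05) and tested with edgeR 4.0.16 (R 4.3.3), quasi-likelihood F test, two-sided, Benjamini-Hochberg adjusted over all 12477 genes. SEs were derived from the F statistic. CPM per kb divides CPM by the exon length in the deposited table, and role sums were described without a test. A floor of 3 counts in a library was 0.0650 to 0.0888 CPM, which covers counting error only. The procedure was also run on simulated counts with few changed genes and no single-library effects. That run does not bear on how the calls here depend on single libraries.

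The 85 genes, their roles, the partner lists and the markers were chosen with earlier results of these data known. Named were a fixed panel, the 2 called genes with the smallest adjusted p in each role, called genes with an absolute log2 fold change of at least 1, and up to 4 called genes of each partner list, and a few others were named after their values were seen (among them Cct6a, Cct7, Hspa4, Hspa1l, Hspbap1, Psmg1, Psmg4, Nfe2l2, Pomp, Shfm1, Hyou1, Atf4 and Hsf2). Some marker values are not reported here. Of the partner symbols, Paaf1 was not found and 5 were found under an older symbol. Alternatives were RLE, upper-quartile or no scaling, no filter or 1 CPM in 3 libraries, DESeq2 1.42.0, limma-voom (limma 3.58.1), each library left out, and, chosen after seeing the data, robust dispersion estimates.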

Additional observations from a re-analysis of the deposited data

How the results depend on the processing

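No paired analysis was possible because no replicate number occurs in both cultures. Of the 12477 genes, 4665 were called, and leaving out 1 library gave 2893 to 5224, the lowest without lymphoid replicate 6. Members called higher in pro-lymphoid culture numbered 18, and 2 to 18 with 1 library left out. Members called lower numbered 7, and 3 to 9. Fewer libraries lower the power of the fit by construction. Under the other settings 18 to 20 were called higher and 5 to 8 lower, with the most under DESeq2 (20 and 8) and the fewest lower under upper-quartile scaling (20 and 5). With robust dispersion estimates, chosen after seeing the data, 18 and 7 were called. Of the 25 calls, 23 were kept in all settings that used the 6 libraries (not Psma3 and Psmb5), and 0 changed sign in any setting. Without scaling the median log2 fold change of all genes was 0.046, and with upper-quartile scaling 0.047. At an unadjusted p under 0.05, 30 of the 77 tested members would pass. Members with few counts, such as Cct6b, Hspb9 and Hspa12b, are limited by depth.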
